A study of Mus musculus with 101 samples.

Results

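A vector carrying mouse Inhbe changed gene expression by different amounts in subcutaneous and in epididymal fat, and the genes that differed are described here. The quantity is the interaction of vector and depot: the change from GFP to mInhbe in epididymal fat minus that in subcutaneous fat, on the log2 scale. A positive value means that mInhbe moved a gene further up, or less far down, in epididymal fat. It rests on 40 of the 101 messenger RNA libraries of the study, chosen by their labels. All 40 came from male wild-type C57BL/6NTac mice on chow that carried an AAV8 (adeno-associated virus serotype 8) construct directing expression to the liver. There were 10 subcutaneous libraries with the GFP control, 10 subcutaneous with mouse Inhbe (mInhbe), 10 epididymal with GFP and 10 epididymal with mInhbe. The labels number the libraries as biological replicates but do not say whether a number marks the same mouse in both depots, and give no age or vector dose. The design text gives 10 mice for each vector and lists the same treatments for both tissues, so the depots may share mice, whereas the fit treats all 40 libraries as independent. The other 61 libraries compared Inhbe knockout with wild-type mice, and 30 of them, on chow, are used at the end.

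Inhbe encodes the beta E subunit of the inhibins and activins. Its homodimer, activin E, is secreted mainly by the liver. Members of the TGF-beta family bind type II and type I receptor serine kinases, which phosphorylate SMAD proteins that then enter the nucleus. Acvr1c encodes ALK7, a type I receptor enriched in fat cells, and signalling through it restrains lipolysis, the breakdown of stored triglyceride. Mouse subcutaneous (inguinal) fat holds a lymph node and can turn on thermogenic genes, whereas epididymal fat is a visceral depot covered by mesothelium and attached to the epididymis.

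Inhbe itself (Entrez 16326, chromosome 10, 127349402 to 127351848, GRCm38.p6) checked the labels. It had 0 counts in all 20 GFP libraries, 35 to 846 counts (median 148) in the 10 mInhbe subcutaneous libraries and 4 to 232 counts (median 31) in the 10 mInhbe epididymal ones. Every mInhbe library therefore held the transcript and no GFP library did. The pooled level was 15.3 CPM (counts scaled to a library total of 1000000) in subcutaneous and 2.76 CPM in epididymal fat. Had the pooled GFP libraries held 3 counts, the ratio would be 880 in subcutaneous and 161 in epididymal fat, so Inhbe was at least 880-fold and at least 161-fold higher. With 0 counts in both control groups the difference of the 2 effects has no usable estimate for Inhbe, and none is given. Where in the fat pads the transcript was made was not tested.

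The fat-cell genes Adipoq, Plin1, Cfd, Fabp4 and Lep were present in all 40 libraries, with Adipoq at 1178 to 2592 CPM. The subcutaneous genes Tbx15 and Shox2 and the visceral genes Wt1, Upk3b, Tcf21 and Bnc1 separated the depots, with Upk3b at 0 in all 20 subcutaneous libraries and at 16.8 to 96.3 CPM in the epididymal ones. Library totals were 14399942 to 20170739 counts, so that 3 counts stood for 0.149 to 0.208 CPM. After the data were seen, 3 GFP libraries that stood apart were picked to be left out together, and no mInhbe library was. Epididymal GFP library 8 held 787 CPM of Ucp1, 360.4 CPM of the muscle gene Ckm, 10.5 CPM of the B cell gene Ms4a1 and 11.8 CPM of Tbx15. In epididymal GFP library 7 Crisp1, a secreted epididymal protein, was at 0.884 CPM while the median of its group was 5011 CPM. Subcutaneous GFP library 2 had the lowest level of long against short transcripts of its group, 0.974 on the log2 scale against a group median of 1.53. Libraries outside these 3 were also far out. Epididymal mInhbe library 9 was at 0.613 on the same scale, and subcutaneous GFP library 5 held 264.3 CPM of Ckm. Of 98 genes called and named by the rule used here, 54 were also called without these 3 libraries and 44 were not.

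**Figure D1:**
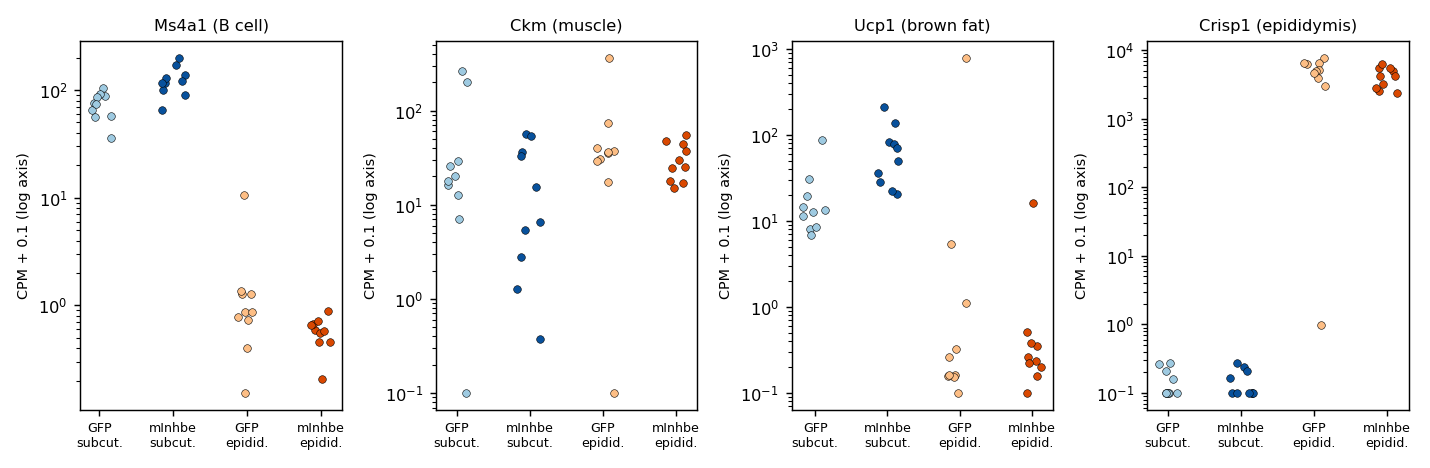
CPM plus 0.1 on a log axis in each of the 40 libraries for 4 genes of tissues that a fat pad can carry, by vector and depot. The B cell gene Ms4a1 was at 35.8 CPM or more in every subcutaneous library. Epididymal GFP library 8 was the highest of its group for Ms4a1, Ckm and Ucp1, and library 7 the lowest for Crisp1.

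The vector's effect differed between the depots for 2081 of 15416 genes tested (13.5%), by edgeR's quasi-likelihood test on all 40 libraries (called where p adjusted by Benjamini and Hochberg was under 0.05). The interaction was positive for 631 genes (4.09%) and negative for 1450 (9.41%). In the same fit 3049 genes (19.8%) changed with mInhbe in subcutaneous fat, 1862 higher (12.1%) and 1187 lower (7.7%). In epididymal fat 340 genes (2.21%) changed, 192 higher (1.25%) and 148 lower (0.96%). The common biological coefficient of variation was 0.219 in subcutaneous and 0.319 in epididymal fat when each depot was fitted apart.

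Most of the called genes changed in subcutaneous fat. Of the 1450 negative genes, 1182 rose in subcutaneous fat and were not called in epididymal fat, 52 fell in epididymal fat and were not called in subcutaneous fat, and 216 were called in neither. Of the 631 positive genes, 358 fell in subcutaneous fat and were not called in epididymal fat, 69 rose in epididymal fat and were not called in subcutaneous fat, and 201 were called in neither. The other 3 were Mpi and Gorasp2, which changed in opposite directions, and Bpifb6, named after its values were seen, which rose in both (1.39 ± 0.34 and 3.11 ± 0.37; interaction 1.71 ± 0.50). The absolute fitted effect was larger in subcutaneous fat for 1279 of the 1450 and for 432 of the 631. In 1960 of the 2081 genes the 2 fitted effects had opposite signs, and 2 genes were called in both depots with opposite signs. The 2081 were chosen for a difference between effects whose medians over all genes lay near 0 (0.01 and -0.002). That choice favours opposite signs, so the 1960 do not count genes with opposite responses. At least 2-fold differences were found in 310 genes, 45 positive and 265 negative. The median interaction of all genes tested was 0.02.

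The counts moved with single libraries and with markers of lymph node. The lymph node score, the mean log2 CPM of 16 lymph node and B cell genes, was 5.52 to 6.45 (median 6.07) with GFP and 5.83 to 6.95 (median 6.42) with mInhbe in subcutaneous fat. In epididymal fat it was -0.25 to 2.98 (median 0.29) with GFP and -0.39 to 0.39 (median 0.08) with mInhbe. With this score as a covariate 1 gene, Dennd2d, was called, and 2620 genes against 4882 had an unadjusted p under 0.05. Without subcutaneous GFP library 2 and epididymal GFP libraries 7 and 8 the count was 877, of which 842 were among the 2081. All 24 genes with the smallest p described next (12 of each sign) were also called without those 3 libraries and in each of the 40 fits that left out 1 library, and only Dennd2d was called with the lymph node score. With a block for each vector and replicate number, which would fit if a number marked 1 mouse, 4 genes were called in all, and 3 of the 24 (Dennd2d, Tlcd4 and Dock11) were among them. The lymph node score was centred within each depot, so its difference between depots did not enter the fit. In subcutaneous fat its mean was 6.01 with GFP and 6.42 with mInhbe, so there it varied along with the vector. With the score 122 genes in place of 3049 were called in subcutaneous fat, and 397 in place of 340 in epididymal fat. The part of lymph node tissue in the result was not tested.

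**Figure D2:**
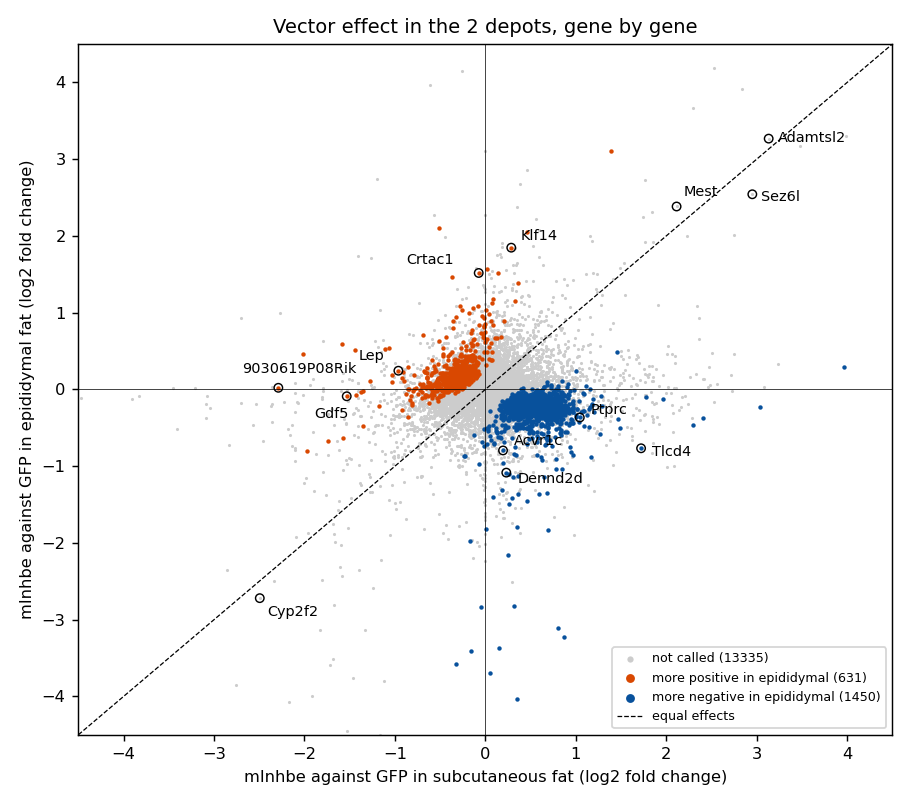
Log2 fold change of mInhbe against GFP in subcutaneous (x axis) and epididymal fat (y axis) for each gene tested, with genes coloured where the interaction was called (631 positive, 1450 negative). The called genes form 2 clouds away from the dashed line of equal effects, while Mest, Adamtsl2, Sez6l and Cyp2f2 lie near it; 21 genes fall outside the axes.

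The smallest p of each sign belonged to genes that moved in epididymal fat. Dennd2d (Entrez 72121, chromosome 3, 106482431 to 106503030), a DENN-domain exchange factor for Rab GTPases, and Ctnnbip1 (Entrez 67087, chromosome 4, 149518241 to 149566437), which binds beta-catenin and blocks its contact with TCF factors, led the negative and the positive genes. The 200 bases before their first listed RefSeq start (GRCm38.p6) are shown because these genes led the 2 signs by p. Capitals mark CAGAC on either strand (GTCTG on the strand shown), the core letters of the element that SMAD3 and SMAD4 bind. Both sequences are plus strand, chr3:106482231-106482430 for Dennd2d and chr4:149518041-149518240 for Ctnnbip1.
Dennd2d: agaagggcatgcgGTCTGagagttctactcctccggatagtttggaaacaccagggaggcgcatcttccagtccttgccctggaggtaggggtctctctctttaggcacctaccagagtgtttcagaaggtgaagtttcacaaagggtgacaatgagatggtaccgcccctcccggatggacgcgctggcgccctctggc
Ctnnbip1: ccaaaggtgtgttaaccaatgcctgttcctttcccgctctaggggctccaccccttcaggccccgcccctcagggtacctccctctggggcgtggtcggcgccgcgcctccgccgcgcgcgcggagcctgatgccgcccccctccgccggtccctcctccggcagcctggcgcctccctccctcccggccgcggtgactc
The letters occur 1 time in the Dennd2d window, starting 187 bases before the start, and 0 times in the Ctnnbip1 window. Of 32851 mouse promoters of the same length 35.5% hold them, so a match is a description of the sequence and no more.

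Dennd2d ran at 24.6 to 67.1 CPM (median 39.7) with GFP and 13.3 to 26.9 CPM (median 19.6) with mInhbe in epididymal fat. In subcutaneous fat it ran at 26.8 to 50.6 CPM (median 34.2) with GFP and 27.4 to 65.1 CPM (median 45.4) with mInhbe. Of the 10 mInhbe epididymal libraries 9 lay below the lowest GFP library, and the subcutaneous groups overlapped. The gene fell in epididymal fat (-1.08 ± 0.15, adjusted p = 6.42e-06) and did not pass the test in subcutaneous fat (0.23 ± 0.15, adjusted p = 0.271). The interaction was -1.32 ± 0.21 (adjusted p = 0.00251), and -1.11 with an adjusted p of 0.0332 with the lymph node score. Here and below, values after ± are standard errors of a log2 difference, worked back from edgeR's test, and each p is from edgeR. The groups held 10 libraries each for the vector, and 7 KO or 8 wild-type libraries for the KO values at the end. In whole tissue, fewer cells that express a gene and less RNA per cell cannot be told apart.

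Ctnnbip1 moved the other way. It ran at 20.5 to 32.6 CPM (median 26.5) with GFP and 28.6 to 49.5 CPM (median 42.7) with mInhbe in epididymal fat and at 21.1 to 30.3 CPM (median 24.9) with GFP and 20.1 to 32.2 CPM (median 22.6) with mInhbe in subcutaneous fat. In epididymal fat 8 of 10 mInhbe libraries lay above every GFP one, whereas the subcutaneous groups overlapped. It rose in epididymal fat (0.60 ± 0.10, adjusted p = 0.000199), lay at -0.16 ± 0.10 in subcutaneous fat (adjusted p = 0.259), and had an interaction of 0.76 ± 0.14 (adjusted p = 0.0113).

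Other genes of the 24 also rose in epididymal fat and were not called in subcutaneous fat. Crtac1, a secreted matrix protein first found in cartilage, ran at 2.62 to 13 CPM (median 7.5) with GFP and 14.2 to 38.7 CPM (median 22.2) with mInhbe in epididymal fat, and its 2 groups there did not overlap. Its effect was 1.52 ± 0.24 there and -0.07 ± 0.24 in subcutaneous fat (interaction 1.59 ± 0.34, adjusted p = 0.013). C1qtnf9, a secreted C1q and TNF related protein of fat, lay at 0.62 ± 0.13 in epididymal and -0.25 ± 0.13 in subcutaneous fat (interaction 0.87 ± 0.19). The cysteine protease inhibitor gene Cst3 (cystatin C) lay at 0.51 ± 0.11 and -0.22 ± 0.11 (interaction 0.73 ± 0.15), the ERK-binding adaptor gene Pea15a at 0.37 ± 0.08 and -0.15 ± 0.08 (interaction 0.53 ± 0.11) and Fgf11, an intracellular fibroblast growth factor homolog, at 0.43 ± 0.10 and -0.28 ± 0.11 (interaction 0.72 ± 0.15). Dock11, which activates the GTPase Cdc42, joined Dennd2d in falling in epididymal fat (-1.12 ± 0.21, against 0.36 ± 0.21 in subcutaneous fat; interaction -1.49 ± 0.30). The interactions of these 6 genes had adjusted p = 0.013, a value shared by many genes, so they are not ranked by it.

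The zinc finger gene Klf14 (Entrez 619665, chromosome 6, 30956021 to 30958990), an imprinted regulator of fat-cell genes, was also led by epididymal fat. It ran at 0.74 to 4.25 CPM (median 3.2) with GFP and 5.52 to 19.1 CPM (median 8.1) with mInhbe there and at 2.22 to 5.96 CPM (median 3.97) with GFP and 1.32 to 8.49 CPM (median 4.8) with mInhbe in subcutaneous fat. All 10 mInhbe epididymal libraries lay above all 10 GFP ones, while the subcutaneous groups overlapped. The effects were 1.85 ± 0.27 (adjusted p = 2.10e-05) and 0.29 ± 0.26 (adjusted p = 0.474), and the interaction was 1.56 ± 0.37 (adjusted p = 0.013).

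On the same chromosome the imprinted hydrolase gene Mest (Entrez 17294, chromosome 6, 30733506 to 30748466), was high with mInhbe in both depots. Mest ran at 22.8 to 122 CPM (median 61.5) with GFP and 99.2 to 433 CPM (median 289) with mInhbe in subcutaneous fat and at 58.5 to 400.3 CPM (median 190.1) with GFP and 804 to 1282 CPM (median 971) with mInhbe in epididymal fat. In each depot at least 9 of 10 mInhbe libraries lay above all GFP ones. Mest rose by 2.11 ± 0.27 and 2.38 ± 0.27, and the interaction of 0.27 ± 0.36 missed the test (adjusted p = 0.635, 95% interval -0.46 to 1.00).

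Other genes with strong calls in both depots likewise had interactions that missed the test. In all, 94 genes were called in both depots in the same direction, 44 higher and 50 lower, and 1 of the 94 was called for the interaction. Adamtsl2, a secreted glycoprotein of microfibrils, had an interaction of 0.14 ± 0.43 (95% interval -0.73 to 1.00). For the neuronal membrane gene Sez6l it was -0.41 ± 0.33 (-1.07 to 0.25), for the serpin gene Serpina3b, which has close paralogs, -0.68 ± 0.53 (-1.75 to 0.40), and for the lipase gene Lipf 1.09 ± 0.56 (-0.05 to 2.22). These genes rose in both depots. Cyp2f2, a xenobiotic cytochrome P450, had -0.23 ± 0.32 (-0.87 to 0.42), Cdkn2c, an inhibitor of the kinases CDK4 and CDK6, 0.06 ± 0.16 (-0.27 to 0.38), and the epoxide hydrolase gene Ephx2 0.04 ± 0.17 (-0.30 to 0.38). These 3 genes fell in both depots. For Cdkn2c and Ephx2 the interval holds differences of at most 0.38 in size, whereas for Lipf it reaches 2.22, so a missed test does not show that the effects of Lipf were alike.

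**Figure D3:**
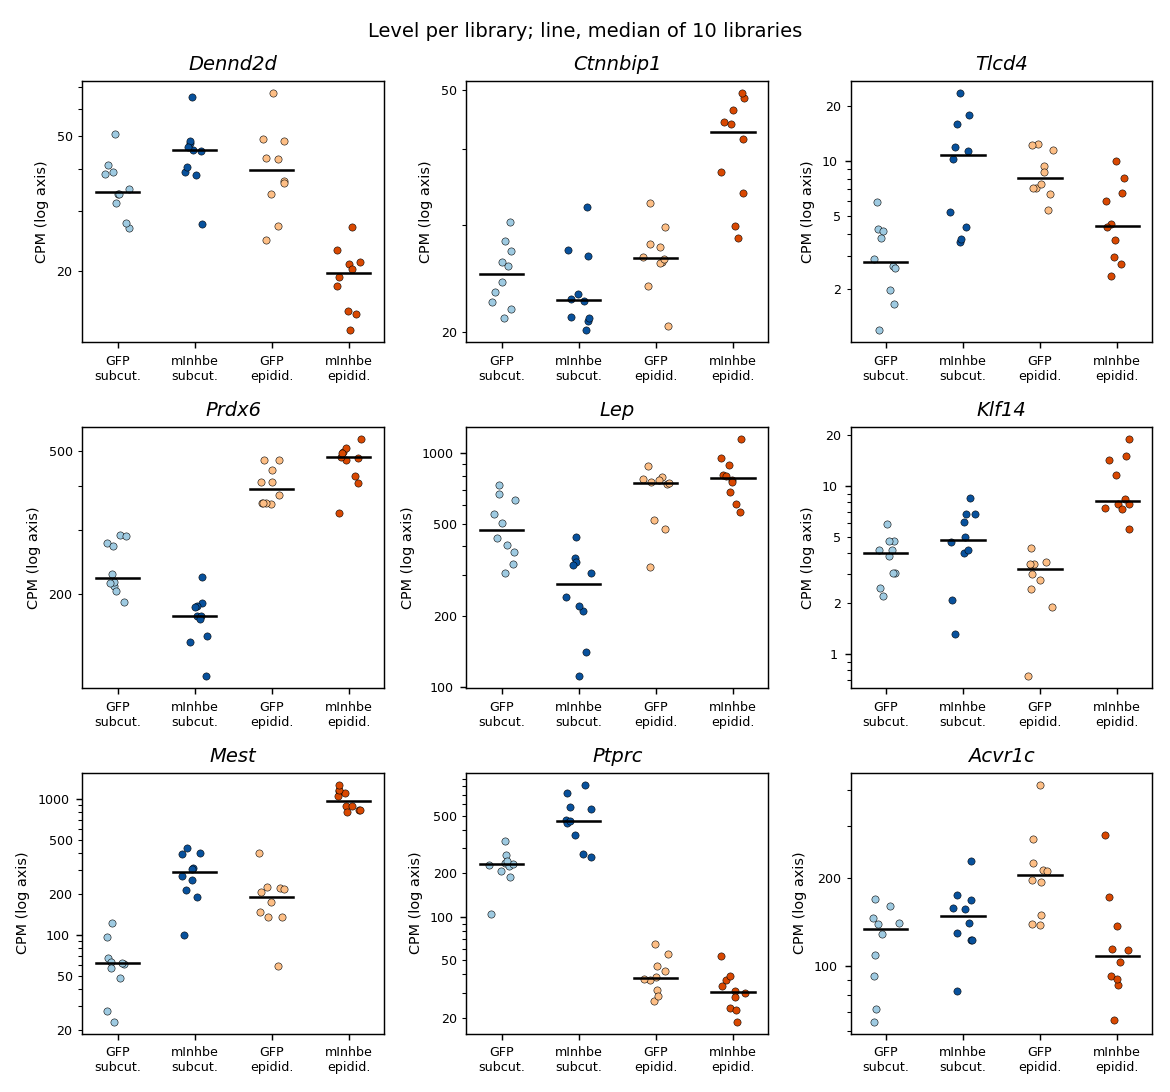
CPM on a log axis in each of 40 libraries for 9 genes, by vector and depot, with the median of 10 libraries as a line. Ctnnbip1 and Klf14 rose and Dennd2d fell in epididymal fat, Tlcd4 and Ptprc rose and Prdx6 and Lep fell in subcutaneous fat, and Mest rose in both.

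Genes led by subcutaneous fat formed the larger group. Tlcd4 (Entrez 99887, chromosome 3, 121202008 to 121283108), which encodes a TLC-domain membrane protein, ran at 1.18 to 5.99 CPM (median 2.79) with GFP and 3.59 to 23.6 CPM (median 10.8) with mInhbe in subcutaneous fat and at 5.41 to 12.3 CPM (median 8.09) with GFP and 2.34 to 10 CPM (median 4.43) with mInhbe in epididymal fat. 6 of 10 subcutaneous mInhbe libraries lay above all GFP ones, and in epididymal fat 6 of 10 lay below all GFP ones. It rose in subcutaneous fat (1.72 ± 0.30, adjusted p = 0.000265) and was not called in epididymal fat (-0.77 ± 0.30, adjusted p = 0.194), with an interaction of -2.49 ± 0.42 (adjusted p = 0.00524).

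Bhlhb9, a gene of the X chromosome, had subcutaneous groups that did not overlap, 28.5 to 56.3 CPM (median 39.7) with GFP and 63 to 91.2 CPM (median 78.2) with mInhbe. It ran at 25.2 to 48.9 CPM (median 33.5) with GFP and 20.3 to 50.5 CPM (median 32.7) with mInhbe in epididymal fat (interaction -0.90 ± 0.16, adjusted p = 0.0113). The other negative genes of the 24 rose in subcutaneous fat by 0.51 to 1.04 and lay at -0.18 to -0.40 in epididymal fat. They were the leukocyte phosphatase gene Ptprc (CD45), the centriole assembly gene Cenpj, the RNA-binding gene Fxr1, the pseudouridine synthase gene Pus3, the cohesin subunit gene Smc1a, the zinc finger genes Zfp141 and Zfp617, and Ccdc66. Their interactions ran from -0.68 ± 0.14 for Smc1a to -1.41 ± 0.26 for Ptprc.

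Among positive genes led by subcutaneous fat was Prdx6 (Entrez 11758, chromosome 1, 161240112 to 161251210), a peroxiredoxin that reduces phospholipid peroxides. It ran at 189 to 291 CPM (median 221) with GFP and 118 to 223 CPM (median 173) with mInhbe in subcutaneous fat and at 355 to 472 CPM (median 392) with GFP and 336 to 541 CPM (median 480.3) with mInhbe in epididymal fat. 9 of 10 subcutaneous mInhbe libraries lay below all GFP ones, and 7 of 10 epididymal ones above. It fell by 0.57 in subcutaneous fat (adjusted p = 0.000815), was not called in epididymal fat (0.23 ± 0.11, adjusted p = 0.334), and had an interaction of 0.80 ± 0.16 (adjusted p = 0.013). Trabd2b, a membrane protease that cleaves Wnt ligands, had subcutaneous groups that did not overlap, 33.4 to 54.8 CPM (median 42.4) with GFP and 19.6 to 32.9 CPM (median 24.8) with mInhbe. In epididymal fat Trabd2b lay at 0.12 ± 0.15 (interaction 1.02 ± 0.22). Pfkfb4, which sets the level of the glycolytic activator fructose-2,6-bisphosphate, lay at -0.65 ± 0.12 and 0.15 ± 0.12 (interaction 0.79 ± 0.17), and the nucleotidase gene Bpnt1 at -0.41 ± 0.06 and -0.03 ± 0.06 (interaction 0.38 ± 0.08). The transcript 9030619P08Rik fell in subcutaneous fat (-2.29 ± 0.37, adjusted p = 8.83e-05) from a low level, 0.504 to 1.83 CPM (median 0.97) with GFP and 0 to 0.553 CPM (median 0.187) with mInhbe, and lay at 0.02 ± 0.30 in epididymal fat.

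Mpi and Gorasp2 were the genes called in both depots with opposite signs, by small amounts, in the joint fit. That fit shares 1 spread between the depots, and with the depots fitted apart 173 genes in place of 340 were called in epididymal fat. Mpi, which makes mannose-6-phosphate for protein glycosylation, ran at 11.8 to 16.5 CPM (median 13.3) with GFP and 10.6 to 13.3 CPM (median 12) with mInhbe in subcutaneous fat and at 11.7 to 20.9 CPM (median 17.9) with GFP and 17.7 to 25.7 CPM (median 21.3) with mInhbe in epididymal fat. The groups overlapped in both depots. It fell by 0.26 in subcutaneous fat (adjusted p = 0.0269) and rose by 0.30 in epididymal fat (adjusted p = 0.0434; interaction 0.56 ± 0.12). Gorasp2, which stacks Golgi cisternae, fell by 0.20 (adjusted p = 0.0484) and rose by 0.27 (adjusted p = 0.0323; interaction 0.47 ± 0.10).

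Among the largest positive sizes of called genes of at least 1 CPM, the calls of Shisa4, Orm3 and Aqp2 each ended when 1 library was left out. Shisa4 was at 1.16 to 3.09 CPM (median 1.66) with GFP and 1.23 to 50.4 CPM (median 2.28) with mInhbe in epididymal fat, and without mInhbe library 7 its interaction was 0.61 with an adjusted p of 0.217 in place of 2.62 ± 0.78 (adjusted p = 0.0254). The acute-phase gene Orm3 had 2.17 ± 0.60, and 1.12 with an adjusted p of 0.0531 without that library. The kidney water channel gene Aqp2 had 2.48 ± 0.76 and was at 0.484 CPM or less in every subcutaneous library, and without subcutaneous GFP library 6 it was at 2.28 with an adjusted p of 0.0539.

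Of 11 adipokine genes tested, 2 were called positive and 2 negative, beside 4.09% and 9.41% of all genes, with a median interaction of 0.36 against 0.02 over all genes. Lep (Entrez 16846, chromosome 6, 29060221 to 29073876), which encodes the satiety hormone leptin, ran at 307 to 731 CPM (median 469) with GFP and 111 to 437 CPM (median 274) with mInhbe in subcutaneous fat. In epididymal fat it ran at 327 to 883 CPM (median 748) with GFP and 560.2 to 1157 CPM (median 785) with mInhbe. 6 of 10 subcutaneous mInhbe libraries lay below all GFP ones, while in epididymal fat the groups overlapped and 3 mInhbe libraries were above. Lep fell by 0.96 in subcutaneous fat (adjusted p = 0.0015), lay at 0.24 ± 0.20 in epididymal fat (adjusted p = 0.605) and had an interaction of 1.21 ± 0.28 (adjusted p = 0.013). With the lymph node score this became 0.64 with an adjusted p of 0.224.

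Apln, the gene of the vasoactive peptide apelin, rose in epididymal fat and was not called in subcutaneous fat (0.89 ± 0.17 against 0.06 ± 0.17; interaction 0.83 ± 0.24, adjusted p = 0.0233). Nampt, which makes a precursor of NAD, fell in epididymal fat (-0.55 ± 0.13 against 0.13 ± 0.13; interaction -0.68 ± 0.19), and the BMP antagonist gene Chrdl1 was called in neither depot (interaction -0.85 ± 0.30, adjusted p = 0.0491). Without the 3 libraries that stood apart, Nampt (-0.58 with an adjusted p of 0.0594) and Chrdl1 (-0.67 with an adjusted p of 0.115) were no longer called.

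Of 17 lipolysis genes, 1 was positive and 2 negative, near the shares of all genes (4.09% and 9.41%), with a median of 0.14. Of these genes 6 fell in subcutaneous and 4 in epididymal fat. Mgll, the lipase of the last step, ran at 1070.0 to 2002 CPM (median 1403) with GFP and 666 to 1598 CPM (median 939) with mInhbe in subcutaneous fat and at 988 to 1715 CPM (median 1314) with GFP and 954 to 2393 CPM (median 1594) with mInhbe in epididymal fat. Both pairs of groups overlapped, with 6 of 10 subcutaneous mInhbe libraries below all GFP ones. It fell in subcutaneous fat (-0.64 ± 0.16) and lay at 0.28 ± 0.16 in epididymal fat (interaction 0.92 ± 0.23, adjusted p = 0.0139). Pde3b, the phosphodiesterase through which insulin lowers cyclic AMP and lipolysis, ran at 302 to 737 CPM (median 427) with GFP and 169 to 509 CPM (median 265) with mInhbe in epididymal fat, where 8 of 10 mInhbe libraries lay below all GFP ones. It fell there (-0.63 ± 0.15) and lay at 0.14 ± 0.15 in subcutaneous fat (interaction -0.76 ± 0.21, adjusted p = 0.0197). The third was the lipid droplet gene Cidea, which without epididymal GFP library 8 lay at 0.01 with an adjusted p of 0.999.

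Nuclear genes of the respiratory chain fell in subcutaneous fat in 13 of 26 cases and in epididymal fat in none, beside 7.7% and 0.96% of all genes tested. For the interaction, 2 of the 26 were positive and none negative, beside 4.09% and 9.41% of all genes. They were Sdhc (0.56 ± 0.17, adjusted p = 0.0238) and Ndufs8 (0.46 ± 0.15, adjusted p = 0.0402). The call of Ndufs8 ended without the 3 libraries (0.44 with an adjusted p of 0.056). The list's median was 0.35, from -0.36 in subcutaneous and -0.02 in epididymal fat. Of the 26 interactions 23 were above 0, beside 7940 of all 15416 genes. The mean log2 CPM of the list was 6.84 to 7.87 in epididymal GFP libraries, and library 8, which held brown-fat and muscle transcripts, was the highest of them. Without library 8 Sdhc was at 0.63 with an adjusted p of 0.0161 and Ndufs8 at 0.54 with an adjusted p of 0.0192. In 24 of the 40 fits that left out 1 library Ndufs8 was not called. With the trend over transcript length removed it was at 0.26 with an adjusted p of 0.0636. None of 17 TCA cycle genes was called by edgeR or DESeq2, with 2 at an unadjusted p under 0.05 in edgeR and a median of 0.15. Of 21 fatty acid oxidation genes 1 was negative, Cpt1b (-3.14 ± 0.98), the muscle and brown-fat form of the enzyme. Without epididymal GFP library 8 it lay at -0.06 with an adjusted p of 0.934.

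Among 16 adipogenic regulators 2 were positive and 1 negative, beside 4.09% and 9.41% of all genes. The positive genes were Klf14 and Zfp423 (0.68 ± 0.22), a committed preadipocyte factor. The negative gene was Ebf2 (-0.80 ± 0.23), a selector of brown and beige precursors. Zfp423 (0.58 with an adjusted p of 0.0807) and Ebf2 (-0.57 with an adjusted p of 0.0782) were not called without the 3 libraries.

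Of 33 receptors, ligands and binding proteins of the TGF-beta family, 2 were positive and 4 negative, near the shares of all genes (4.09% and 9.41%), with a median of -0.0015. The positive genes were Inhbb and Gdf5. Inhbb, the beta B subunit of activin B, ran at 24.8 to 62 CPM (median 41.3) with GFP and 14.6 to 43.6 CPM (median 25.2) with mInhbe in subcutaneous fat and at 21.3 to 48.9 CPM (median 33.3) with GFP and 29.9 to 61.3 CPM (median 38.1) with mInhbe in epididymal fat. The groups overlapped in both. It fell in subcutaneous fat (-0.68 ± 0.17, adjusted p = 0.00635), lay at 0.24 ± 0.17 in epididymal fat and had an interaction of 0.91 ± 0.25 (adjusted p = 0.0168). Gdf5, a growth and differentiation factor of the BMP branch, fell in subcutaneous fat, where it ran at 0.908 to 1.83 CPM (median 1.41) with GFP and 0.176 to 0.76 CPM (median 0.512) with mInhbe and the groups did not overlap. Its effects were -1.53 ± 0.28 and -0.09 ± 0.25 (interaction 1.44 ± 0.37, adjusted p = 0.0148).

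The negative genes were Acvr1c, Bmpr1a, Tgfbr1 and Acvr2a. Acvr1c (Entrez 269275, chromosome 2, 58267453 to 58357896), the gene of ALK7, ran at 138 to 417 CPM (median 204) with GFP and 65.4 to 281 CPM (median 108) with mInhbe in epididymal fat and at 64.6 to 169 CPM (median 134) with GFP and 82.5 to 228 CPM (median 149) with mInhbe in subcutaneous fat. 8 of 10 epididymal mInhbe libraries lay below all GFP ones, while 2 stood among them, and the subcutaneous groups overlapped. It fell in epididymal fat (-0.80 ± 0.21, adjusted p = 0.0329), lay at 0.19 ± 0.21 in subcutaneous fat (adjusted p = 0.561) and had an interaction of -0.99 ± 0.30 (adjusted p = 0.0278). Without the 3 libraries that stood apart the value was -0.79 with an adjusted p of 0.0751, and with the trend over transcript length removed it was -0.65 with an adjusted p of 0.0538. It also missed the test without subcutaneous mInhbe library 3 (-0.89, adjusted p = 0.051) and without epididymal GFP library 7 (-0.80, adjusted p = 0.052). The BMP type I receptor gene Bmpr1a (-0.66 ± 0.20), the TGF-beta type I receptor gene Tgfbr1 (-0.75 ± 0.25) and the activin type II receptor gene Acvr2a (-0.72 ± 0.24) rose in subcutaneous fat and were not called in epididymal fat. The call of Bmpr1a also ended without subcutaneous mInhbe library 3 (-0.61, adjusted p = 0.0522) and without epididymal GFP library 9 (-0.61, adjusted p = 0.0521). Tgfbr1 and Acvr2a were named after their values were seen. With the length trend removed 2 of the 33 were positive and none negative. Without the 3 libraries no receptor was called, and Inhbb and Gdf5 still were. None of 18 SMAD target genes was called for the interaction by edgeR or DESeq2, with 2 at an unadjusted p under 0.05 in edgeR and a median of 0.18. Of these 4 rose in subcutaneous and 4 in epididymal fat, and the smallest p was that of the feedback inhibitor gene Ldlrad4 (-0.52 ± 0.20, adjusted p = 0.0804), which rose in both depots (1.08 ± 0.15 and 0.57 ± 0.15). In the Wnt and beta-catenin list 2 of 28 were positive and 1 negative, beside 4.09% and 9.41% of all genes. The positive genes were Ctnnbip1 and the secreted antagonist gene Sfrp5 (1.37 ± 0.48, adjusted p = 0.0496). Without the 3 libraries Sfrp5 was at 1.21 with an adjusted p of 0.129. The negative gene was Apc (-0.85 ± 0.23), which marks beta-catenin for destruction.

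**Figure D4:**
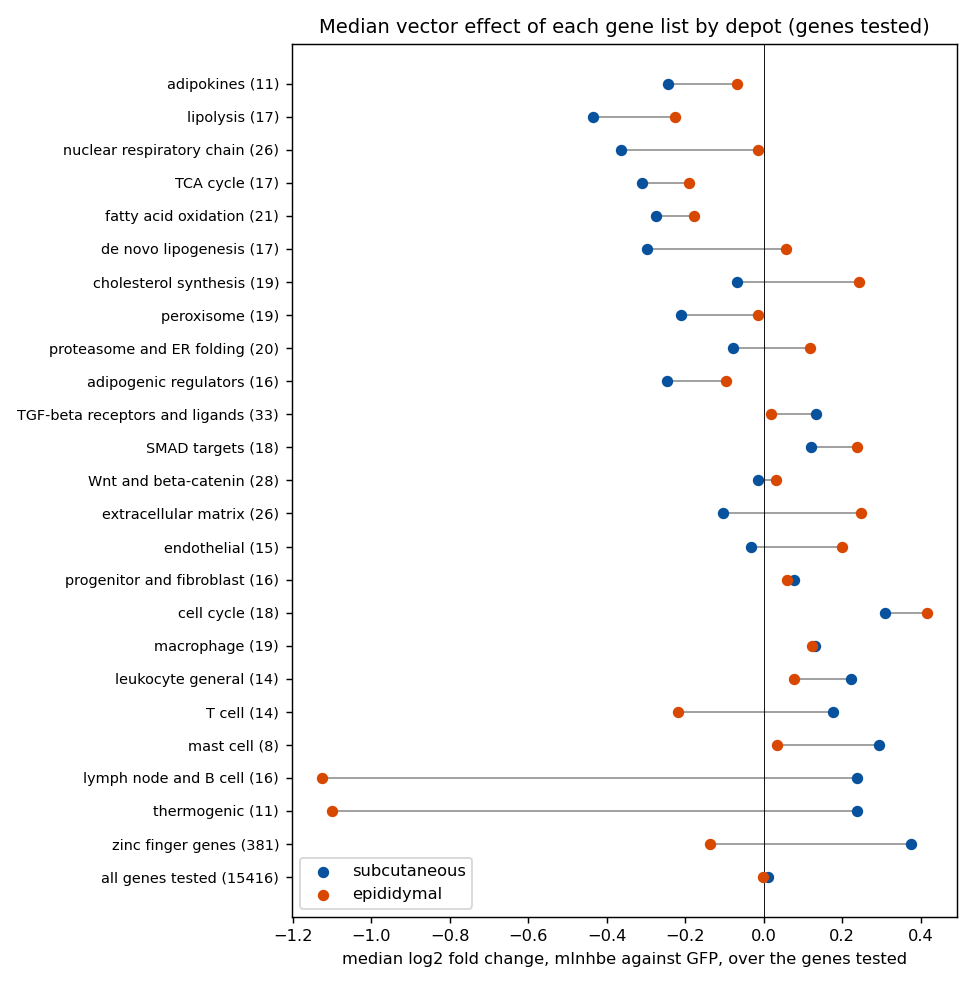
Median log2 fold change of mInhbe against GFP over the tested genes of 24 lists and over all genes, in subcutaneous (blue) and epididymal fat (orange); the number tested is in parentheses. Medians of metabolic lists lay lower in subcutaneous fat, those of matrix and endothelial lists higher in epididymal fat, and the low epididymal medians of the lymph node and thermogenic lists, -1.13 and -1.10, include epididymal GFP library 8.

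Of 26 matrix genes tested, 6 were positive and 1 negative, beside 4.09% and 9.41% of all genes. Of the 26, 21 lay above 0, beside 7940 of all 15416 genes, and the median was 0.35. The called genes included basement membrane and collagen-binding genes. Sparc, which binds collagen, ran at 1843 to 4369 CPM (median 3327) with GFP and 3372 to 6312 CPM (median 4609.6) with mInhbe in epididymal fat and at 2361 to 3763 CPM (median 3290.0) with GFP and 2418 to 3950.5 CPM (median 2935) with mInhbe in subcutaneous fat. 7 of 10 epididymal mInhbe libraries lay above all GFP ones. It rose in epididymal fat (0.52 ± 0.12) and lay at -0.17 ± 0.12 in subcutaneous fat (interaction 0.68 ± 0.17, adjusted p = 0.0143). The basement membrane collagen genes Col4a1 (0.78 ± 0.22), Col4a2 (0.79 ± 0.24) and Col15a1 (0.86 ± 0.25) and the microfibril collagen genes Col6a2 (0.67 ± 0.22) and Col6a3 (0.55 ± 0.18) were the other positive genes, of which Col4a2, Col6a2 and Col6a3 were named after their values were seen, and the proteoglycan gene Dcn was negative (-0.61 ± 0.18). Without the 3 libraries 1 of the 26 was called, Sparc (0.69 with an adjusted p of 0.0331). With the length trend removed 10 were positive and 1 negative. Of 15 endothelial genes 2 were positive, Cdh5 (0.44 ± 0.14), the adhesion molecule of endothelial junctions, and Gpihbp1 (0.70 ± 0.21), which anchors lipoprotein lipase in capillaries, whose call ended without the 3 libraries (0.70 with an adjusted p of 0.0554). Of 16 progenitor and fibroblast genes 4 were negative, Dpp4 (-0.91 ± 0.24), Cd55 (-0.86 ± 0.22), Fap (-0.71 ± 0.22) and Dcn, with a list median of 0.08. The calls of Fap (-0.54 with an adjusted p of 0.109) and Dcn (-0.54 with an adjusted p of 0.0576) ended without the 3 libraries. Dpp4 and Cd55 mark early progenitors of the interstitium and rose in subcutaneous fat (0.70 ± 0.17 and 0.61 ± 0.16).

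Ptprc (CD45), carried by nearly all leukocytes, was 1 of 2 called genes of the general leukocyte list. Ptprc ran at 105 to 332 CPM (median 230.3) with GFP and 258 to 822 CPM (median 463) with mInhbe in subcutaneous fat and at 26.1 to 64.7 CPM (median 37.7) with GFP and 18.8 to 53.6 CPM (median 30.1) with mInhbe in epididymal fat. 8 of 10 subcutaneous mInhbe libraries lay above all GFP ones, and the epididymal groups overlapped. It rose in subcutaneous fat (1.04 ± 0.19, adjusted p = 0.000294), lay at -0.37 ± 0.19 in epididymal fat and had an interaction of -1.41 ± 0.26 (adjusted p = 0.0113; -0.80 with an adjusted p of 0.157 with the lymph node score). Of 14 general leukocyte genes 2 were negative, of 14 T cell genes 2, of 19 macrophage genes 3 and of 8 mast cell genes 1, and none of these was positive, beside 9.41% negative and 4.09% positive of all genes. Without the 3 libraries each of these lists had 1 negative gene. The median interaction was -0.15 for the general leukocyte, -0.44 for the T cell and -0.27 for the mast cell list. For the macrophage list it was 0.16, with 11 of 19 genes above 0 and 8 below. The mean log2 CPM of the general leukocyte list was 6.31 to 7.37 with GFP and 6.83 to 7.67 with mInhbe in subcutaneous fat, and 4.51 to 5.19 and 4.32 to 5.09 in epididymal fat. The T cell genes were the interleukin-7 receptor gene Il7r (-1.46 ± 0.33) and the costimulator gene Cd28 (-1.33 ± 0.34; -0.90 with an adjusted p of 0.0656 without the 3 libraries). Mrc1 (-0.86 ± 0.24), the mannose receptor of resident macrophages, rose in subcutaneous fat (0.69 ± 0.17), as did the mast cell carboxypeptidase gene Cpa3 (0.75 ± 0.15; interaction -0.99 ± 0.21).

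Of 16 lymph node and B cell genes 6 were negative and none positive, beside 9.41% and 4.09% of all genes. Their median was -1.39, and 15 of 16 lay below 0. Ms4a1 (CD20) ran at 35.8 to 106 CPM (median 74.5) with GFP and 65.1 to 198 CPM (median 119) with mInhbe in subcutaneous fat but at 0.0538 to 10.5 CPM (median 0.771) with GFP and 0.107 to 0.779 CPM (median 0.483) with mInhbe in epididymal fat, where the highest library was GFP library 8. Its interaction was -2.52 ± 0.62 with all libraries and -1.33 with an adjusted p of 0.0188 without library 8, and -1.13 with an adjusted p of 0.056 without the 3 libraries. The complement receptor gene Cr2 (-1.89 ± 0.57) lay at -0.90 with an adjusted p of 0.126 and the B cell chemokine receptor gene Cxcr5 (-1.76 ± 0.54) at -0.88 with an adjusted p of 0.108 without it. Bank1, a B cell scaffold gene, was still called without the 3 libraries (-0.87 with an adjusted p of 0.0398), the 1 of 16 that was.

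Thermogenic and muscle genes gave the largest negative values, and 1 library held high levels of both. Ucp1, the proton leak of brown fat, ran at 6.84 to 88.2 CPM (median 12.9) with GFP and 20.3 to 210.0 CPM (median 59.7) with mInhbe in subcutaneous fat. In epididymal fat it ran at 0 to 787 CPM (median 0.11) with GFP and 0 to 16.2 CPM (median 0.15) with mInhbe, with 787 CPM in GFP library 8. Its interaction was -7.15 ± 1.83 (adjusted p = 0.0148) with that library and -0.55 with an adjusted p of 0.79 without it. Of 11 thermogenic genes 5 were negative and none positive, beside 9.41% and 4.09% of all genes. Dio2 (-1.26 with an adjusted p of 0.0917), Cidea (0.01 with an adjusted p of 0.999) and Elovl3 (-0.80 with an adjusted p of 0.711) were likewise not called without library 8. Ppargc1a, the coactivator of mitochondrial biogenesis, was the exception. It ran at 6.04 to 23.3 CPM (median 11.2) with GFP and 1.89 to 11.1 CPM (median 5.42) with mInhbe in epididymal fat, where 6 of 10 mInhbe libraries lay below all GFP ones. It fell there (-1.10 ± 0.25), lay at 0.26 ± 0.25 in subcutaneous fat and had an interaction of -1.36 ± 0.35, and -1.19 with an adjusted p of 0.0208 without library 8.

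The muscle genes Myh4 (-10.49 ± 2.99), Atp2a1 (-7.28 ± 2.19) and Ttn (-5.45 ± 1.70) were the called members of 14 muscle genes. Over all genes 9.41% were negative and 4.09% positive. Myh4 was at 1166 CPM in epididymal GFP library 8 and at 0.0682 CPM or less in all mInhbe epididymal libraries. Without library 8 it lay at -4.16 with an adjusted p of 0.32, Atp2a1 at -3.62 with an adjusted p of 0.18 and Ttn at -3.16 with an adjusted p of 0.133. Xirp2 and Ampd1, 2 further muscle genes among the 5 largest negative values, lay at -5.46 with an adjusted p of 0.09 and -3.03 with an adjusted p of 0.179 without it. The call of Xirp2 also ended without epididymal mInhbe library 3 (-8.88, adjusted p = 0.0661). That library held 0.0573 CPM of Xirp2, under the 0.172 CPM that 3 counts stood for in it. Other libraries that stayed in the fit without library 8 also held muscle transcripts. Epididymal GFP library 6 had a muscle-list mean log2 CPM of 5.04 and 111.3 CPM of the muscle gene Myh1. Subcutaneous GFP libraries 5 and 8 had means of 7.15 and 5.55. The highest mInhbe mean was 4.255 in subcutaneous and 0.76 in epididymal fat. The part of carried muscle in the remaining values was not tested.

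Zinc finger genes were counted after the results were seen. Of 381 tested genes whose symbols begin with Zfp, Zkscan or Zscan, 144 were negative and 1, Zfp423, positive, with a median of -0.52. Over all genes 9.41% were negative and 4.09% positive. In subcutaneous fat 156 of them rose and 6 fell, beside 12.1% and 7.7% of all genes, and in epididymal fat none was called by edgeR in either direction, with 29 at an unadjusted p under 0.05. Without the 3 libraries 79 were negative. Their mean log2 CPM was 2.46 to 3.10 with GFP and 2.994 to 3.597 with mInhbe in subcutaneous fat, and 2.99 to 3.58 and 2.57 to 3.41 in epididymal fat.

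The sign of the interaction followed transcript length. With 15110 of the genes (98%) placed in 5 classes of about equal size by their longest GENCODE M21 basic transcript, the share called negative went from 1.02% in the shortest class (median 1271 bases) through 4.21, 7.8 and 13.5% to 20.7% in the longest (median 6620 bases). The share called positive went from 7.47% through 5.73, 3.41 and 2.45% to 1.36%. The median interaction went from 0.22 in the shortest to -0.24 in the longest class. In subcutaneous fat it was the long genes that lay higher with mInhbe (median effect -0.10 in the shortest and 0.17 in the longest class), and in epididymal fat the short ones (0.08 and -0.07).

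The same could be read from single libraries. The median log2 level of the longest class minus that of the shortest was 0.974 to 1.70 (median 1.53) with GFP and 1.47 to 2.00 (median 1.83) with mInhbe in subcutaneous fat. It was 0.997 to 1.93 (median 1.58) with GFP and 0.613 to 1.93 (median 1.33) with mInhbe in epididymal fat. The groups overlapped in both depots, and the lowest subcutaneous GFP library was library 2. When the trend over length was removed from each library, 1980 genes were called, 993 positive and 987 negative, so that 50.2% of calls were positive in place of 30.3%. The share of genes called still rose with length. In the shortest class 3.73% were positive and 2.05% negative, and in the longest 9.89% and 10.9%. Of the 2081 genes 1438 remained, all 24 genes with the smallest p among them, and of the 381 zinc finger genes 117 were negative and 7 positive.

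**Figure D5:**
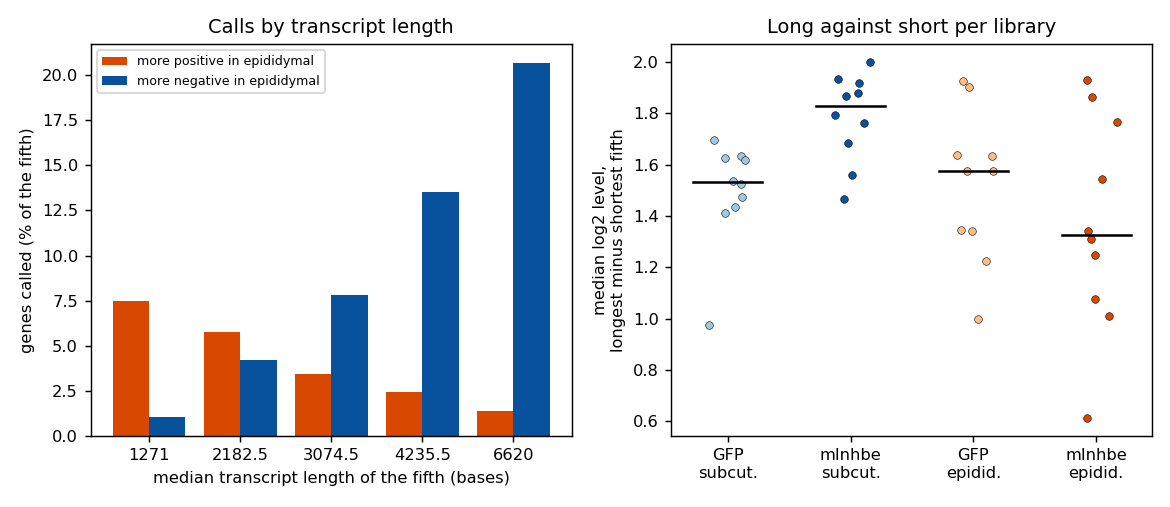
Left, percent of genes in each of 5 classes of transcript length that were called positive (orange) or negative (blue), over the median length of the class in bases. Right, median log2 level of the longest minus the shortest class in each of 40 libraries, with the group median as a line; negative calls went from 1.02 to 20.7% with length, and subcutaneous mInhbe libraries had the highest group median, 1.83.

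Mice without Inhbe on chow gave the same contrast in other libraries: (KO minus wild type in epididymal fat) minus (KO minus wild type in subcutaneous fat), with 7 KO and 8 wild-type libraries in each depot. None of 15480 genes was called by edgeR (0%), with 311 at an unadjusted p under 0.05, and DESeq2 called 19. Of the 631 genes positive with the vector, 629 were measured and 35.3% lay above 0, with a median of -0.05. Of the 1450 negative genes 22.5% lay above 0, with a median of -0.08, beside 48% and a median of -0.01 over all 15177 genes in both fits.

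Klf14 fell in the KO in both depots, at -2.54 ± 0.47 in subcutaneous (adjusted p = 0.000978) and -2.73 ± 0.42 in epididymal fat (adjusted p = 2.54e-05), with a difference of -0.19 ± 0.71. Mest also fell in both (-3.73 ± 0.30 and -4.07 ± 0.29, difference -0.34 ± 0.39). For Lep the KO difference was -0.72 ± 0.35, from 0.45 ± 0.24 in subcutaneous and -0.27 ± 0.25 in epididymal fat, none of them called. Crtac1 lay at 0.02 ± 0.29 and -0.98 ± 0.30 in the KO. The KO difference was 0.11 ± 0.31 for Dennd2d, -0.04 ± 0.19 for Ctnnbip1 and -0.18 ± 0.34 for Acvr1c, and neither these nor that of Crtac1 passed the test.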

How the data were processed

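Messenger RNA libraries of subcutaneous and epididymal fat were sequenced as paired ends on a NovaSeq, per the labels' protocols, and mapped to mm10, per the submitters' processing notes. An added bead clean-up favoured larger fragments, per the labels' protocols, and its part in the trend over transcript length was not tested. Which aligner and counter were used, and whether molecular identifiers were, is not given in the sources used here. The authors deposited estimated counts per gene by Entrez ID for each experiment. Of the cells 2.95% were not whole (tolerance 0.000001), so the planned count test was run on expected counts rounded to whole numbers. Symbols came from RefSeq GRCm38.p6 for 24375 of 24475 IDs. The most abundant of the 100 IDs without a symbol held 1.27 to 4.43% of a library and was kept. Library totals were 14399942 to 20170739 counts. Counting error only is covered by floors of 3 counts.

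All 40 libraries entered 1 edgeR 4.0.16 fit (R 4.3.3, filterByExpr minimum count 10, TMM, robust quasi-likelihood), with p-values adjusted by Benjamini and Hochberg over 15416 genes and called under 0.05. DESeq2 1.42.0 and limma 3.58.1 (voom) were alternatives, with another scaling, no filter, replicate blocks, tissue scores, and each library left out. Removing 3 libraries together and removing the length trend were added after the data were seen. The KO table was fitted separately with the same test. Within groups, 180 library pairs differed by more than counting noise, so no library was counted as a copy.

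Named genes were Inhbe and Acvr1c, the 12 smallest p and the 5 largest sizes of each sign among called genes of at least 1 CPM, genes called in both depots (opposite, or the 8 strongest in the same direction), and up to 4 called members of each of 41 lists, or 2 where none was called. A few genes that meet the rule are not reported here. The comparison, the members and the lists were chosen with earlier results of these data known. On simulated data for the interaction with 15416 genes the test recovered 28.4% of 67 genes changed 1.5-fold, 61.2% of 67 changed 2-fold and 90.9% of 66 changed 4-fold, with 4 false calls. The labels call the samples biological replicates. Whether p-values also measure spread between separate mice rests on that label.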

Additional observations from a re-analysis of the deposited data

Results flagged for a closer look

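The vector's effect differed between the depots for 2081 genes by the interaction test. Of these, Mpi (0.56) and Gorasp2 (0.47) were called in both depots with opposite signs in the joint fit.

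Single libraries far from the rest of their group of 10 were looked for with Dixon's test in 172 groups of 43 named genes, of which 18 passed, and in 48 groups of library measures, of which 9 passed. Chance alone passes about 1 in 20 groups where the values were not chosen by their results. The 43 genes, apart from Inhbe and Acvr1c, were chosen by their results in these same libraries. A single far library can give a large interaction, so the 18 cannot be set against that rate. Epididymal GFP library 8 was high for Ucp1 (787 CPM), Myh4 (1170.0 CPM) and Ampd1 (15.3 CPM). Its mean log2 CPM was also high for the lymph node (2.98), leukocyte (5.19), T cell (2.2), thermogenic (5.94) and respiratory chain (7.87) lists. Epididymal GFP library 7 was low for Mpi (11.7 CPM), Aqp2 (0.387 CPM) and the mammary and skin list (-0.0851). Subcutaneous GFP library 2 was low for Ptprc (105 CPM), Cenpj (3.61 CPM), the zinc finger genes (2.46) and long against short transcripts (0.974 on the log2 scale).

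Among other GFP libraries, epididymal library 5 was apart for Cenpj (5.78 CPM), epididymal library 9 for 9030619P08Rik (0.342 CPM) and Crtac1 (2.62 CPM) and subcutaneous library 9 for Myh4 (0.234 CPM). Among mInhbe libraries, epididymal library 7 was high for Shisa4 (50.4 CPM) and Orm3 (20.0 CPM), epididymal library 6 for Ucp1 (16.2 CPM) and the thermogenic list (2.4), and epididymal library 5 for Inhbe (15.8 CPM). Epididymal library 3 was apart for Xirp2 and Ampd1 (0.0573 CPM each), and subcutaneous library 5 for Ephx2 (599 CPM). In epididymal mInhbe library 3 the level of 3 counts was 0.172 CPM, so its 2 values lay under that floor.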

How the results depend on the processing

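The 2081 calls became 2124 with DESeq2's size factors in edgeR, 1703 with no low-count filter, 2701 with DESeq2 (950 positive), 1856 with limma-voom and 2477 with an epididymis score as a covariate. With the lymph node score 1 gene was called, 0 positive and 1 negative, and 122 in subcutaneous fat. Without subcutaneous GFP library 2 and epididymal GFP libraries 7 and 8 the count was 877 (239 positive, 638 negative). With the length trend removed 993 were positive. The number of genes called in epididymal fat was 172 with voom and 173 with the depots fitted apart. The KO contrast gave 19 calls with DESeq2, 13 positive and 6 negative. The cause of these shifts was not tested.

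Replicate numbers were not shown to pair libraries. Same-numbered subcutaneous and epididymal libraries correlated at -0.212 to 0.199 with GFP and -0.307 to 0.0341 with mInhbe, and 2 and 0 of 10 correlated best with their own number. A replicate block of the shared number gave 1052 calls (268 positive, 784 negative), and a block of vector and number together 4 (1 positive, 3 negative).

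Leaving out 1 library gave 1310 to 3338 calls, 346 to 1425 positive and 914 to 1913 negative, with 114 to 232 genes lower in epididymal and 792 to 1929 lower in subcutaneous fat. The total moved by over 1.5 times without subcutaneous mInhbe library 3 (1310), 4 (3338) or 8 (1356), subcutaneous GFP library 2 (1384), epididymal GFP library 9 (1333) and epididymal mInhbe libraries 1 (1358) and 7 (1345). Of 98 named called genes 61 were called in every such fit.

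Values near 0 or resting on few libraries changed sign. Rnase10 was at -4.43 with DESeq2, -0.083 with voom, -0.26 and -0.82 with the replicate blocks and -1.03 with the epididymis score. With the lymph node score H2-Ob was at 0.27, H2-Oa at 0.19, Cdkn2c at -0.050, Adamtsl2 at -0.79 and Ephx2 at -0.047. With the length trend removed Ephx2 was at -0.011. Over fits without 1 library Ephx2 ran from -0.0075 to 0.17, Adamtsl2 from -0.12 to 0.47, Cidea from -3.62 to 0.010 and Ngp from -3.88 to 1.70. Simulation recovered 28.4% of 1.5-fold differences, but it changed far fewer genes than were called here. It also gave each gene the same spread in both depots, so its rates may not hold for these libraries. Small differences may have been missed.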

Other observations

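Over all genes tested 4.09% were positive and 9.41% negative, and 7940 of 15416 lay above 0. Of 19 cholesterol synthesis genes 2 were positive and none negative, with 16 above 0 and a median of 0.44. Fdft1, which makes squalene, fell in subcutaneous fat (-0.66 ± 0.11; interaction 0.59 ± 0.16), and Insig1, which retains the sterol sensor in the endoplasmic reticulum, rose in epididymal fat (0.65 ± 0.16; interaction 0.78 ± 0.23). Of 19 peroxisome genes 3 were positive and 1 negative. Pecr, a peroxisomal enoyl-CoA reductase, ran at 8.72 to 11 CPM (median 10.1) with GFP and 5.55 to 8.11 CPM (median 6.72) with mInhbe in subcutaneous fat, and its groups there did not overlap (interaction 0.68 ± 0.15). Of 20 proteasome and protein folding genes 5 were positive and 1 negative. The proteasome ATPase gene Psmc4 (0.45 ± 0.12) and the secretory cargo gene Tmed4 (0.49 ± 0.11) fell in subcutaneous fat, where the folding lectin gene Canx rose (interaction -0.60 ± 0.18).

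The clock genes Nr1d2 (-0.83 ± 0.21) and Clock (-0.73 ± 0.20) were the called members of 15, and both rose in subcutaneous fat. The insulin receptor gene Insr (-0.61 ± 0.19) and the kinase gene Pik3ca (-0.52 ± 0.17) were negative among 17 genes of insulin action. In branched-chain amino acid breakdown Pccb was positive (0.48 ± 0.15) and Dbt negative (-0.52 ± 0.18), the latter falling in epididymal fat (-0.48 ± 0.13). Of 18 cell cycle genes Cdk1 was positive (0.55 ± 0.19) and Nusap1 negative (-0.59 ± 0.19), while 7 rose in subcutaneous and 3 in epididymal fat. Among 11 mesothelium genes Cldn15 was positive (0.67 ± 0.20) and Gpm6a negative (-1.08 ± 0.32), and of 15 interferon response genes Ifit2 was negative (-0.97 ± 0.31). Alb, the 1 positive gene of 5 liver genes, fell in subcutaneous fat (-1.58 ± 0.22), where its groups did not overlap. Of the genes named in this and the preceding paragraph, 10 were not called without subcutaneous GFP library 2 and epididymal GFP libraries 7 and 8: Canx (-0.59 with an adjusted p of 0.0522), Insr (-0.50 with an adjusted p of 0.0644), Pik3ca (-0.42 with an adjusted p of 0.0975), Dbt (-0.37 with an adjusted p of 0.155), Pccb (0.49 with an adjusted p of 0.0536), Cdk1 (0.59 with an adjusted p of 0.0657), Nusap1 (-0.52 with an adjusted p of 0.0961), Ifit2 (-0.82 with an adjusted p of 0.085), Alb (0.98 with an adjusted p of 0.0586) and Gpm6a (-0.89 with an adjusted p of 0.0517). When 1 library at a time was left out, the call was lost in 26 of 40 fits for Dbt, 22 for Cdk1, 18 for Pik3ca, 16 for Ifit2, 13 for Alb, 11 for Nusap1, 9 for Canx, 8 for Pccb and 3 for Insr. With the length trend removed, Clock (-0.36, adjusted p = 0.101), Insr (-0.26, adjusted p = 0.11) and Pik3ca (-0.16, adjusted p = 0.461) were not called. Nor were Dbt (-0.45, adjusted p = 0.0764), Nusap1 (-0.50, adjusted p = 0.0563) and Ifit2 (-0.85, adjusted p = 0.0515).

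Ribosomal protein genes gave no call by edgeR or DESeq2 among 20, with 4 at an unadjusted p under 0.05 in edgeR and a median of 0.19. Mitochondrially encoded genes gave none by either tool among 13, with 1 at an unadjusted p under 0.05 in edgeR. Of 10 MHC class II genes edgeR called none, with 1 at an unadjusted p under 0.05, and DESeq2 called 1, negative.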
